A study of Rattus norvegicus with 2 samples.

Results

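The genes described here are 10 growth factors and receptors that drive or permit liver growth: the receptors Egfr, Erbb2, Erbb3 and Met, the EGF receptor ligands Areg, Hbegf, Tgfa, Ereg and Btc, and the hepatocyte growth factor Hgf. They were found on the array by the RefSeq transcript accession of each probe, and all 10 had a probe, out of 13667 genes that could be named in this way. The samples were 2 pools of liver RNA from Sprague Dawley rats. The control pool came from animals dosed with sodium chloride. The treated pool came from animals that received senecionine, a hepatotoxic plant alkaloid of the pyrrolizidine group, into the stomach at 35 mg/kg. Liver was collected at 36 h, tissue of 3 animals was pooled per group, and each pool was hybridised to 1 array. Sex and age are not given in the sources used here. The comparison asks which of these transcripts differ after senecionine exposure. There are no replicates, so no test was made, and every error below is Agilent's spot error, a technical error within the array.

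Both systems signal through receptor tyrosine kinases on hepatocytes. EGF family ligands are made as membrane-anchored precursors and are freed by proteases such as ADAM17. They bind EGFR, which pairs with ERBB2, itself without a ligand, or with ERBB3, whose kinase is weak and whose own ligands are the neuregulins. HGF is secreted as an inactive chain, mainly by stellate and sinusoidal endothelial cells of the liver, is cut by proteases such as the HGF activator and urokinase, and then binds MET. After loss of liver tissue these signals are known to bring hepatocytes into division.

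The arrays differed before any gene was compared. Of 43379 non-control spots, 44.4% were well above background, Agilent's flag for detection, for control and 64.1% for senecionine. The lowest signal with that flag was 20.6 intensity units for control and 10.8 for senecionine. All 6 named hepatocyte markers were well above background on both arrays. Of 12 nervous system markers, 10 were well above background for control and 11 for senecionine. Their summed signal, in units of the array's 75th percentile, was 142 for control and 4.98 for senecionine. Mt3 gave 5231 intensity units for control and 17.9 for senecionine, and Tubb3 5619.7 and 373. The label liver alone does not cover these signals on the control array. The hepatocyte markers, with a summed signal of 2210.4 for control and 1278 for senecionine, were present there too. Whether the control pool also held RNA of another tissue, or was mixed up, was not tested. Every ratio below is against the library labelled control, and none can be given without it.

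The promoters of Areg and Hbegf, the EGF receptor ligands detected in the senecionine pool alone, are shown because only these 2 of the 8 members with a RefSeq promoter entry (all but Erbb3 and Ereg) held any of the letters searched for. Each sequence gives the 250 bases before the annotated start, from RefSeq on the GRCr8 build, 5′ to 3′ on the gene's strand. The Areg sequence lies at chr14:17265642-17265891 on the minus strand and the Hbegf sequence at chr18:28390221-28390470 on the minus strand. Capitals mark the matches.
Areg: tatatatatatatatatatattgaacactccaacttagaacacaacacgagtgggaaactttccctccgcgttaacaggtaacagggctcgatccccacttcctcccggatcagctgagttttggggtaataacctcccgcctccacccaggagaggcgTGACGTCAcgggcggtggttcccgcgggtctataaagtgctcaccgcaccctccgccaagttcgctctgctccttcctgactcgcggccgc
Hbegf: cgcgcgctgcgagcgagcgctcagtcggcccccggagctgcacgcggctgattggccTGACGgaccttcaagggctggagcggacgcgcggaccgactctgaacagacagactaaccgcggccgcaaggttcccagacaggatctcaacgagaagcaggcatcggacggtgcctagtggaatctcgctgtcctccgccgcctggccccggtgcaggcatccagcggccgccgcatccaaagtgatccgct
In Areg the capitals are TGACGTCA, the full cAMP response element, 91 to 84 bases before the start. These letters read the same on both strands. They occur, on either strand, in 1.59% of 33469 rat promoter windows of this length. In Hbegf the capitals are TGACG, the shorter form of the same element, 193 to 189 bases before the start. The shorter form, which every full element contains, was in 18.2% of windows and in 2 of the 8 member windows. The AP-1 element TGANTCA was in 6.34% of windows and in none of the 8 member windows. Counts over 8 windows cannot be set apart from these shares, and a match describes the letters only.

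Of the 10 genes, 4 were well above background on both arrays (Egfr, Erbb2, Erbb3 and Tgfa), against 57.1% of all named genes. A further 4 were so on the senecionine array only (Areg, Hbegf, Hgf and Met), against 19.2% of all named genes, and none on the control array only, against 1.24%. Ereg and Btc were not well above background on either array, as were 22.5% of all named genes. Of the 4 genes measured in both pools, Erbb3 was lower by 2-fold or more after senecionine and none was higher by as much. Over all 7803 genes so measured, 17.7% were lower by 2-fold or more and 11.2% higher. Counts over 4 genes cannot be set apart from these shares. The median log2 ratio (senecionine minus control) of the 4 was -0.33, and that of all measured genes was -0.14. Signals below were divided by the array's 75th percentile, 101 intensity units for control and 134 for senecionine, before any ratio was taken.

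**Figure D1:**
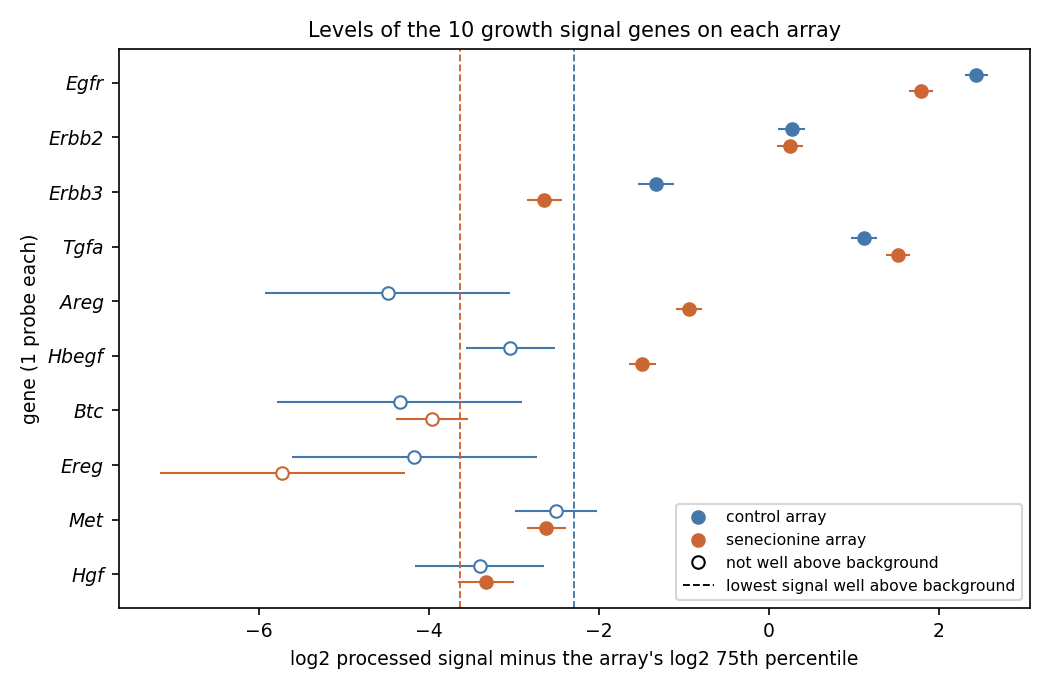
Signal of each of the 10 genes on the control array (blue) and the senecionine array (orange), on the x axis as log2 processed signal minus the array's log2 75th percentile. Bars are spot error, open circles are signals not well above background, and dashed lines mark the lowest signal well above background on each array (-2.29 for control, -3.63 for senecionine). Areg and Hbegf cross from open to filled with a clear shift, whereas Hgf and Met change symbol at nearly the same level.

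Areg, amphiregulin, an EGF receptor ligand that damaged epithelia and immune cells release, went from background to a clear signal. Its signal was 4.53 intensity units in the control pool and 69.6 in the senecionine pool. Before background subtraction its control spot read 55.5, inside the range of negative control spots on that array (median 50, highest 62.0). On the senecionine array it read 127, above the highest negative control spot of 55.0. Because the control value is not a measured level, only a bound can be given: Areg was at least 2.55-fold higher after senecionine, the senecionine signal set against the lowest control signal well above background. With normexp background correction, which adds an offset of 50 intensity units and so shrinks the folds of dim signals, the bound was 1.75-fold. Areg is not among the probes of the authors' deposited table.

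Hbegf, heparin-binding EGF-like growth factor, a ligand known to rise early in injured and regenerating liver, was the other EGF receptor ligand detected on the senecionine array only. In the control pool it gave 12.3 intensity units, where it was positive and significant but not well above background, and in the senecionine pool 47.5. The bound for Hbegf was 1.74-fold higher, short of 2-fold. Taken at face value the signals gave a log2 ratio of 1.54 ± 0.54 (spot error), or 2.92-fold. With normexp correction the bound was 1.22-fold. The authors' deposited table lists Hbegf with a log2 difference of 1.48. Of the 4 genes detected on the senecionine array only, these 2 had a bound above 1-fold, as had 38.1% of all 2620 such genes. Only Areg passed 2-fold, as did 12.2% of such genes.

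Tgfa, transforming growth factor alpha, which hepatocytes make for themselves, was the only ligand among the 10 genes detected on both arrays. Its signal, from 1 spot per array, was 219 intensity units in the control pool and 382 in the senecionine pool. The log2 ratio was 0.40 ± 0.21 (spot error), 1.32-fold higher and within 2-fold, and 72.7% of measured genes had a lower ratio.

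Ereg, epiregulin, and Btc, betacellulin, remained near background. Ereg gave 5.59 intensity units for control and 2.55 for senecionine, and its raw spot signals of 61.0 and 44.0 lay below the highest negative control spot of each array. Btc gave 4.98 for control and 8.59 for senecionine, where its raw signal of 59.0 was just above the highest negative control spot. No fold can be given for either gene. In the GRCr8 gene table Btc, Areg and Ereg are neighbours in that order among coding genes, so that of this run of ligand genes Areg alone gave a signal well above background.

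Egfr, the receptor of these ligands and an abundant receptor of hepatocytes, was lower after senecionine by less than 2-fold on both of its probes. Its brighter probe, 1 spot per array, gave 547 intensity units for control and 464 for senecionine, a log2 ratio of -0.65 ± 0.20 (spot error), or 1.56-fold lower. Its other probe was printed repeatedly. The 8 control spots kept ran from 136 to 166 intensity units with a median of 148, and the 9 senecionine spots from 109 to 124 with a median of 117. In units of the 75th percentile the control spots ran from 1.35 to 1.65 and the senecionine spots from 0.813 to 0.926, without overlap, and the senecionine spot was the lower at all 8 positions kept on both arrays. The log2 ratio of this probe was -0.74 ± 0.21. Agilent's outlier flag had removed 2 control spots, at 0.997 and 0.919, the lower of which lies inside the senecionine range, and 1 senecionine spot at 0.710, below all those kept. Spots of 1 probe share their RNA pool, so they measure the array and not the spread between animals. Of all measured genes, 28.6% had a lower ratio than the brighter Egfr probe.

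Erbb2, the receptor without a ligand that pairs with the others, did not differ beyond its spot error. Its 10 control spots ran from 56.6 to 172 intensity units (median 131) and its 10 senecionine spots from 128 to 192 (median 156). After scaling, the control range of 0.562 to 1.71 enclosed the senecionine range of 0.955 to 1.43. The senecionine spot was the lower at 7 of 10 positions. The log2 ratio was -0.02 ± 0.21 (spot error). The control spots were uneven, with a log2 SD of 0.52 against a median of 0.13 for 138 repeated probes on that array. The 2 lowest read 56.6 and 74.2, and the next 125. With the median over spots in place of the mean the log2 ratio was -0.16.

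**Figure D2:**
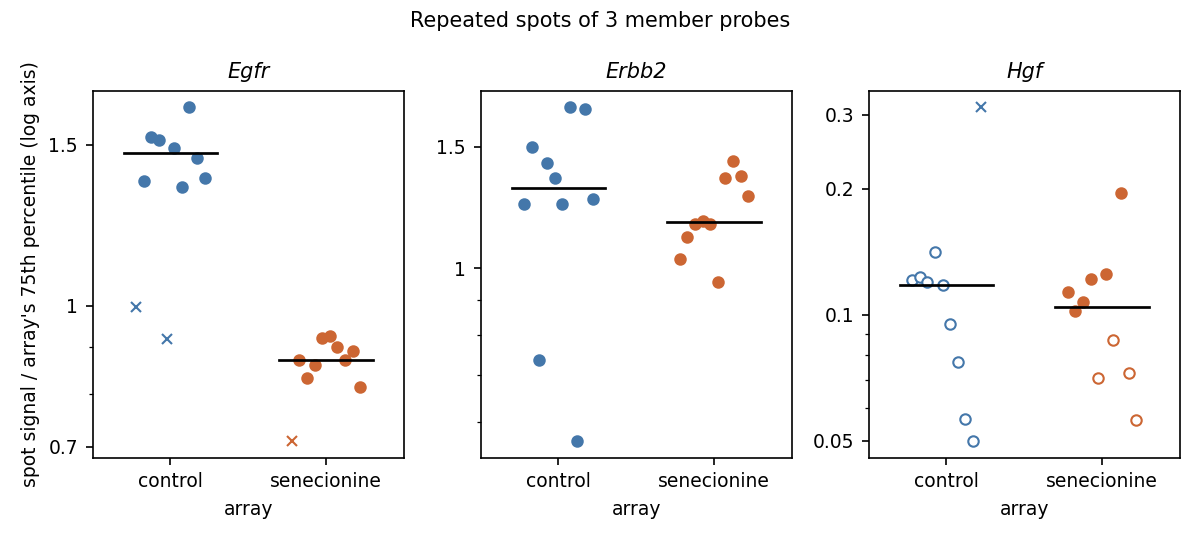
Signal of every spot of the repeated Egfr, Erbb2 and Hgf probes on the control (blue) and senecionine (orange) arrays, as a multiple of the array's 75th percentile on a log axis. Lines are medians of the spots kept, open circles are spots not well above background and crosses are spots removed by Agilent's outlier flag. The kept Egfr spots part without overlap, and the Erbb2 and Hgf spots overlap.

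Erbb3, the neuregulin receptor with a weak kinase, was the member with the lowest ratio among those measured on both arrays. It gave 40.1 intensity units in the control pool and 21.4 in the senecionine pool, from 1 spot each. The log2 ratio was -1.31 ± 0.29 (spot error), 2.48-fold lower, and 11.6% of measured genes had a lower ratio. The authors' deposited table gives a log2 difference of -1.44. With normexp correction and its offset, which shrinks the folds of dim signals, Erbb3 was 1.46-fold lower, short of 2-fold. Its senecionine signal, -2.64 on the scaled log2 axis, lies under the lowest control signal well above background, -2.29. When that floor was applied to both arrays Erbb3 counted as detected on the control array only, at least 1.95-fold lower.

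Markers of other cells differed too. ERBB3 is also known from glial cells, and of 9 nervous system markers measured in both pools 8 were lower by 2-fold or more (median log2 ratio -4.32). The myelin gene Mbp went from 1054 to 16.2 intensity units. A further 2, Gfap and Syt1, were detected on the senecionine array only and Snap25 on the control array only. Of 6 hepatocyte markers 4 were lower by 2-fold or more. Their median log2 ratio was -1.07, and their summed signal was 2210.4 times the 75th percentile for control and 1278 for senecionine. The part of either list in the Erbb3 and Egfr values was not tested. Fewer hepatocytes and less RNA per hepatocyte cannot be told apart in RNA of whole tissue.

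Beside the ligands, markers of cells that can make amphiregulin and HB-EGF were higher in part. Of 5 neutrophil markers measured in both pools 4 were higher by 2-fold or more and 1 lower, and the summed signal of the 8 with a probe was 11.8 times the 75th percentile for control and 451 for senecionine. Without Lcn2, which is also an acute phase gene of hepatocytes, the sums were 4.68 and 77.7. The granule gene Prtn3 was 2.53-fold lower, and Elane gave 17.9 and 14.5 intensity units. Of 7 macrophage markers 3 were higher and 3 lower, and Cd163 was not well above background on either array. Their summed signal with Cd163 was 146 for control and 253 for senecionine. Without Lgals3 the order turned, with sums of 127 and 108. Of 3 bile duct markers 2 were higher. The summed signal of the 5 with a probe was 1.19 for control and 25.5 for senecionine, or 1.14 and 3.86 without Spp1, and Cftr was not well above background on either array. The part of these lists in the Areg and Hbegf values was not tested.

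HGF and its receptor MET stayed close to the limit of detection. The Hgf probe was printed repeatedly. None of its 9 kept control spots was well above background, though all 9 were positive and significant, and 6 of 10 senecionine spots were well above it. Signals ran from 5.04 to 14.3 intensity units for control and from 7.51 to 26.1 for senecionine. In units of the 75th percentile the control spots ran from 0.0499 to 0.141 and the senecionine spots from 0.0562 to 0.195, with medians of 0.118 and 0.104. The ranges overlapped, with the senecionine range reaching higher, and the senecionine spot was lower at 5 of 9 positions. The change in Hgf from not detected to detected thus came with a log2 ratio of 0.07 ± 0.82 (spot error), and no bound above 1-fold could be given. A control spot at 0.313, the brightest on either array, had been removed by the outlier flag.

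Met followed the same pattern from 1 spot per array. For control it gave 17.8 intensity units, positive and significant but not well above background, and for senecionine 21.7, with a log2 ratio of -0.12 ± 0.53 (spot error). Under 1 signal floor for both arrays, Hgf and Met counted as detected on neither, and of the 10 genes 2, Areg and Hbegf, were then detected on the senecionine array only, against 7.45% of all named genes. Among the cells known to secrete HGF, 4 of 6 sinusoidal endothelial markers were lower by 2-fold or more (summed signal 115 for control and 39.3 for senecionine). Of 7 stellate cell and fibroblast markers 2 were higher and 1 lower (217 and 141, or 68.2 and 60.2 without Col3a1). The part of these lists in the Hgf value was not tested.

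The other genes of both pathways were taken as 5 lists. Of 109 genes listed, 91 had a probe and 65 were measured in both pools. Among these 21 (32.3%) were higher by 2-fold or more and 6 (9.23%) lower, against 11.2% and 17.7% of all measured genes, the shares beside which each list's counts below also stand. The median log2 ratio was 0.56 against -0.14 for all measured genes. With median scaling, 10 were lower. A further 21 of the 91 (23.1%) were detected in the senecionine pool alone, near the 19.2% of all named genes. Of these 21, 8 had a bound of at least 2-fold, against 12.2% of all genes so detected. The lists were chosen with earlier results of these data known.

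**Figure D3:**
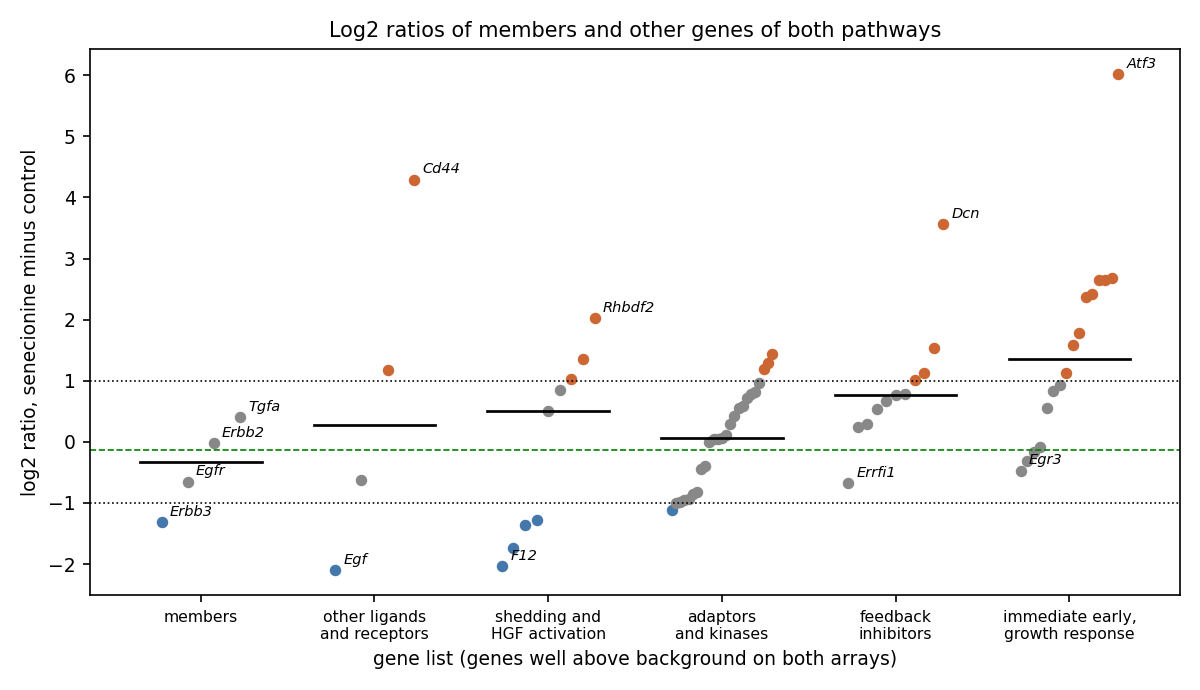
Log2 ratio (senecionine minus control) of each gene measured on both arrays, for the 4 members and the 5 lists of other pathway genes. Orange and blue points are at least 2-fold higher and lower, black lines are list medians, the green dashed line is the median of all measured genes (-0.14) and dotted lines mark 2-fold. The members spread around the green line, and 9 of 16 immediate early and growth response genes lie above the upper dotted line.

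Among other ligands, receptors and coreceptors, 2 of 4 measured genes were higher and 1 lower. Cd44, a cell surface glycoprotein that can present HGF to MET, was 19.6-fold higher (122 and 3174 intensity units). Sdc1, a heparan sulphate proteoglycan, was 2.27-fold higher. Egf, the namesake ligand, was 4.30-fold lower, from 107 to 33.0 intensity units, and the receptor Axl 1.54-fold lower. Nrg1, a neuregulin and thus a ligand of ERBB3, was detected on the senecionine array only, at 168 intensity units against 15.6, and was at least 6.16-fold higher. Erbb4, the remaining receptor of the family, was not well above background on either array. Ligand genes of the EGF family therefore went both ways, Areg and Nrg1 higher and Egf lower.

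Genes of ligand shedding and HGF activation also split, with 3 of 9 higher (1 with normexp correction) and 4 lower. Rhbdf2, the partner protein that brings ADAM17 to the cell surface, was 4.05-fold higher. Adam17, named after its value was seen, was 2.55-fold higher, from 46.8 to 158 intensity units. The probes of another sheddase, Adam9, disagreed, with log2 ratios of 1.03 and -1.13. On the side of HGF, the HGF activator Hgfac was 2.56-fold lower, its inhibitor Spint2 3.32-fold lower and the coagulation protease F12 4.12-fold lower. Urokinase (Plau) and its receptor Plaur were named after their values were seen. Plau gave 22.9 intensity units for control, where it was not well above background, and 112 for senecionine. At face value Plau was 3.69-fold higher, a log2 ratio of 1.88 ± 0.47 (spot error). Plaur was at least 2.68-fold higher.

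Most adaptors and kinases downstream lay within 2-fold. Of 25 measured, 3 were higher and 1 lower, and the median was 0.07. The MAP kinase kinase Map2k1 was 2.45-fold higher and the transcription factor Stat3 2.30-fold (log2 ratio 1.20, other probe 0.76). Under quantile normalization, cyclic loess and normexp correction no gene of this list was lower, while 5 were lower with median scaling.

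The list of feedback inhibitors, which also holds the matrix gene Dcn, was higher in 4 of 11 measured genes and lower in none, with a median of 0.76. With median scaling or normexp correction 2 were higher. Dcn, which encodes the matrix protein decorin, known to bind EGFR and MET and also a stellate cell marker, was 11.8-fold higher. The phosphatase Ptpn1 was 2.91-fold, the ERK phosphatase Dusp5 2.18-fold and the ubiquitin ligase Cblb 2.03-fold higher. Spry4, an inhibitor that growth factor signalling induces, was at least 3.82-fold higher. Errfi1, the direct inhibitor of EGFR, named after its value was seen, had a log2 ratio of -0.67 ± 0.20.

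Immediate early and growth response genes, which these receptors and many other signals induce, were higher in 9 of 16 measured genes and lower in none, with a median of 1.35. Atf3 was 65.1-fold, Klf6 6.41-fold, Myc 6.29-fold and Jun 6.28-fold higher, and Fosl1 was at least 11.1-fold higher. Ccnd1, the cyclin that follows mitogen signals, named after its value was seen, had a log2 ratio of -0.17 on its brighter and 0.08 on its other probe.

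**Figure D4:**
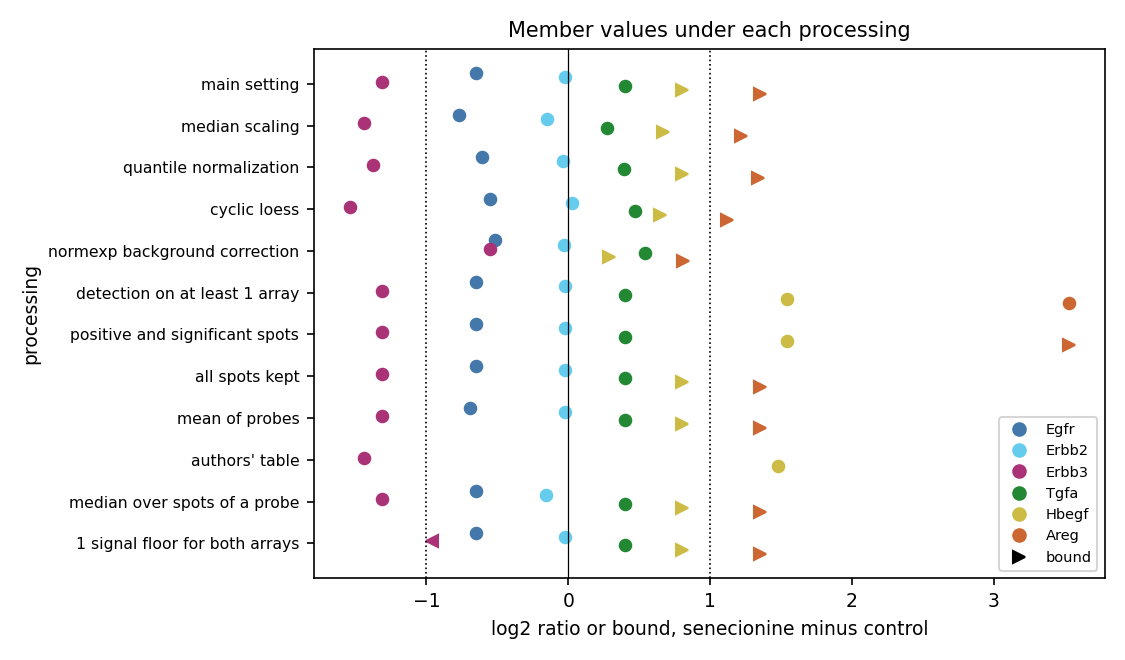
Log2 ratio, or bound on it, of 6 members under each processing tried. Circles are ratios, triangles are bounds pointing away from 0, and dotted lines mark 2-fold. Erbb3 passes the lower line except under normexp correction (-0.55) and 1 signal floor (bound of 1.95-fold), and Areg passes the upper line except under normexp correction (bound 0.81), with no value in the authors' table. The values for Areg with positive and significant spots and with detection on at least 1 array are set against a control spot at background. The Hbegf ratios under these settings are set against a control spot not well above background.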

How the data were processed

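Intensity values were produced by the authors in Agilent Feature Extraction (version 10.7.3.1, per the file headers and processing notes of the submitters), which subtracts background and removes trends within each 1-colour array. The deposited intensity values are not scaled between arrays, and both arrays came from 1 scan. The authors' deposited log2 values cover 7404 probes, all differing by at least 1.0001, with column medians of 6.03 (control) and 6.10 (senecionine). The sources used here do not state how they were scaled. All 7355 of these probes compared had the same direction as the scanner signals.

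Log2 processed signals were centred on each array's 75th percentile and spots averaged per probe. Control spots and outlier-flagged spots (522 control, 497 senecionine) were left out. No spot was saturated. Accessions were matched to the RefSeq gene table of GRCr8, which named 17250 of 40516 probes. A probe counted as detected when at least 50% of its spots were well above background, and the brightest such probe stood for its gene. All members are named, and per list the 4 largest ratios and the highest bound of at least 2-fold, of which some are not reported here. Members and lists were chosen with earlier results of these data known. Spot error of a repeated probe is the mean over its spots. A bound was taken against the lowest signal well above background on the other array, or the gene's own signal there if higher. The counting of genes measured on both arrays was tested on data simulated from the control array alone. That simulation did not cover the bounds or the different detection floors of the arrays. The work used R 4.3.3 with limma 3.58.1, and Python 3.11.15 with pandas 2.3.3, numpy 2.4.6 and matplotlib 3.10.9. With 1 array per group there is no test, and the number of arrays limits the precision.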

Additional observations from a re-analysis of the deposited data

How the results depend on the processing

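No paired analysis was possible because each group has 1 array, and the slide could not be a block for the same reason. The ratios of Egfr, Erbb2 and Tgfa moved by less than their spot error under every alternative that gave a value. Median scaling shifted the median log2 ratio of all genes by -0.13, to -0.26, and 10 pathway genes were lower in place of 6. Cyclic loess gave a bound for Areg of 1.12 on the log2 scale in place of 1.35. Normexp correction gave a log2 ratio for Erbb3 of -0.55, bounds of 0.81 for Areg and 0.29 for Hbegf, 0 members lower and 761 genes lower of 7803. With detection on at least 1 array 2 members (Areg and Hbegf), 37 pathway genes and 2410 of 10592 genes (22.8%) were higher. The control values of both members are not well above background. With positive and significant spots the value for Areg was 3.53, which is set against a control spot at background and is no measured fold. In that setting 1 member (Hbegf) and 1565 of 10196 genes (15.3%) were higher, and 2 members were detected with senecionine only. At 1.5-fold 2 members and 14 pathway genes were lower. Of all 7803 genes 1642 (21.0%) were then higher and 2424 (31.1%) lower. At 4-fold 0 members were lower, and 9 pathway genes were higher and 2 lower. Of all 7803 genes 213 (2.73%) were then higher and 361 (4.63%) lower. In the authors' table, a list selected at 2-fold, 1 member (Hbegf), 35 pathway genes and 2032 of 3516 genes were higher. Of genes past 2-fold 38.8% were higher, 60.7% with detection on 1 array and 57.8% in that table. The median over spots and the single floor were chosen after seeing the data. With the single floor 0 members were lower, against 15.4% of all measured genes. In that setting 2 members were detected with senecionine only, against 7.45% of all named genes. The normexp offset shrinks the folds of dim signals, and thresholds and detection rules change which genes can count. The cause of these changes was otherwise not tested. Weak signals limit Hgf, Met, Ereg and Btc, which lie at or near background.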
